A study of Oryctolagus cuniculus with 34 samples.

Results

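The genes described here encode the shared building blocks of the basement membrane: the collagen IV chains COL4A1 and COL4A2, the laminin chains LAMA2, LAMA4, LAMB1, LAMB2 and LAMC1, the nidogens NID1 and NID2, and perlecan (HSPG2). They were taken by name from the rows of the count files. The rule uses no measured value, but the set was put together with earlier results of these data known. All 10 were present, of 18176 gene names in the files, and all 10 had enough counts to be tested in every comparison.

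The study sequenced RNA from the supraspinatus of the rotator cuff, a shoulder muscle, in rabbits (Oryctolagus cuniculus), to compare uninjured muscle, injured muscle, muscle after repair only, and muscle after repair with a tissue-derived extracellular matrix gel. The 34 libraries form 6 groups of treatment and term. The short term has 4 libraries of injury only, 5 of repair only and 5 of repair with the gel. The long term has 5 of repair only, 5 of repair with the gel and 10 of uninjured muscle. No uninjured muscle belongs to the short term and no injury-only muscle to the long term, so the reference group differs between terms. The kind of injury, the number of weeks in each term, and the strain, sex and age of the rabbits are not given in the labels. The codes in the file names put 1 uninjured and 1 operated long-term library under each of 10 animal codes, and each operated long-term muscle is read below against the uninjured muscle of its code. The labels do not say that libraries of 1 code come from 1 rabbit, and their deviations from the group means correlated above 0.1 in 6 of 10 pairs. The labels do not otherwise say how the samples of a group were obtained, so the p-values measure the spread between these libraries.

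The basement membrane is a thin sheet of matrix that wraps every muscle fibre, capillary, nerve sheath and fat cell. Laminins are trimers of an alpha, a beta and a gamma chain that assemble first on cell-surface receptors, collagen IV forms a covalent network beside them, and nidogens and perlecan link the networks. In muscle, the laminin that carries the LAMA2 chain surrounds the fibres and anchors them through dystroglycan and integrin alpha 7, and its loss causes a congenital muscular dystrophy, while LAMA4 is typical of vessel walls and nerve sheaths. Because the samples are whole muscle, fewer cells of a type and less RNA per cell cannot be told apart.

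Total counts lay between 26904529 and 32313295 per library for the short term and 12582302 to 15019158 for the long term, and the columns of the short-term and long-term files are headed differently. Term and any batch that goes with it therefore cannot be told apart. The 10 genes together took 0.0707 to 0.435% of a library's counts, with 294 to 35500 counts per gene in a short-term library and 106 to 7625 in a long-term one. Of 91 pairs of libraries within groups, 0 held identical counts. 3 libraries stood apart from their groups in the median correlation of log2 CPM with the other libraries of the group: injury replicate 3 (0.879), short-term repair replicate 4 (0.870) and long-term gel replicate 1 (0.896). Injury replicate 3 lay above all other injury libraries for 10 of the 10 basement membrane genes, and short-term repair replicate 4 lay below all other short-term repair libraries for 8 of 10. Long-term gel replicate 1 lay above the other gel libraries for 6 genes and below them for 4. For each comparison that holds these libraries, some fitted differences, medians or counts of the 10 genes are also given without them. The gene lists, the median correlations within groups and the likeness to other genes are given with these libraries included. Levels below are CPM, counts scaled to a common library total after TMM scaling, which multiplies each library's total by a factor. CPM does not account for gene length, so levels are compared between libraries and never between genes. The factors ran from 0.725 (long-term gel replicate 1) to 1.51 (short-term repair replicate 1), with 1.48 for injury replicate 3. Unscaled, the 10 genes took a median of 0.340% of counts in short-term repair and 0.114% after injury. After scaling their median sums were 2494 and 1354 CPM.

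Collagen IV chains form the network that gives the membrane its strength. COL4A1 stood at 271, 221, 784 and 369.7 CPM in injury replicates 1 to 4, at 736, 649, 385, 163 and 806 CPM in short-term repair, and at 642, 411, 596, 573 and 369.4 CPM in short-term gel. In the long term it stood at 476, 347, 539, 414 and 340.5 CPM after repair and at 354, 345, 273, 346 and 254 CPM with gel, and in the 10 uninjured muscles it ran from 209 through a median of 335 to 421 CPM. Injury replicate 3 lay above 4 of the 5 short-term repair libraries and short-term repair replicate 4 below every injury library, so the short-term groups overlapped.

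COL4A2, its partner chain, stood at 161, 152, 556 and 258 CPM after injury, at 519, 432, 288, 124 and 671 CPM after short-term repair, and at 559, 334, 525, 399 and 278 CPM with gel. Among the long-term libraries it stood at 275, 165, 279, 235 and 166 CPM after repair and at 336, 190.3, 163, 167 and 138 CPM with gel, against 115 to 216 CPM (median 170.0) in uninjured muscle. The highest long-term gel value came from replicate 1, above every uninjured and every long-term repair library.

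LAMA2, the alpha chain of the fibre's own laminin, stood at 67.8, 45.6, 135 and 66.4 CPM after injury, at 81.1, 112, 109.9, 50.9 and 50.5 CPM after short-term repair, and at 54.4, 67.9, 91.7, 106 and 73.0 CPM with gel. In the long term it stood at 103, 49.4, 65.0, 80.2 and 49.5 CPM after repair and at 27.7, 50.4, 52.2, 51.2 and 47.3 CPM with gel, against 32.1 to 80.1 CPM (median 47.1) in uninjured muscle. Long-term gel values other than that of replicate 1 kept within 5 CPM of each other and inside the uninjured range.

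LAMA4, the alpha chain of vessel and nerve laminins, stood at 22.8, 37.5, 143 and 46.4 CPM after injury, at 127, 73.7, 75.6, 26.9 and 112 CPM after short-term repair, and at 57.6, 48.0, 66.3, 66.0 and 49.7 CPM with gel. Among the long-term libraries it stood at 55.6, 26.7, 45.1, 36.1 and 24.8 CPM after repair and at 19.98, 31.3, 27.5, 29.2 and 28.3 CPM with gel, against 17.2 to 37.5 CPM (median 26.6) in uninjured muscle. Among the 10 genes it had the widest spread in the injury group, with a coefficient of variation of 87.4%, against 15.1% in short-term gel.

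LAMB1 and LAMB2 are alternative beta chains, LAMB2 being the one enriched at the neuromuscular synapse. LAMB1 stood at 46.8, 39.5, 186 and 81.0 CPM after injury, at 159.8, 112, 103, 43.9 and 215 CPM after short-term repair, and at 94.9, 112, 174, 109.7 and 76.8 CPM with gel. In the long term it ran from 48.0 to 76.9 CPM after repair, from 33.8 to 59.0 CPM with gel and from 28.5 to 65.8 CPM in uninjured muscle. LAMB2 was the steadiest of the 10 in the injury group, with a coefficient of variation of 23.5% and means of 252 ± 59.2 CPM after injury (SD, n = 4), 249 ± 42.2 after short-term repair (SD, n = 5) and 253 ± 40.1 with gel (SD, n = 5). Its long-term means were 153 ± 32.9 after repair (SD, n = 5), 125 ± 24.2 with gel (SD, n = 5) and 119.5 ± 24.3 without injury (SD, n = 10). LAMC1, the gamma chain that nearly all of these laminins share, had group means between 17.2 and 21.6 CPM, and those means differed by at most 1.26-fold.

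Nidogens bind the laminin gamma chain on one side and collagen IV and perlecan on the other. NID1 stood at 37.7, 48.6, 118 and 44.9 CPM after injury, at 105, 86.2, 120.1, 43.9 and 131 CPM after short-term repair, and at 90.8, 95.4, 167, 91.1 and 76.8 CPM with gel. In the long term it stood at 100.6, 61.8, 82.9, 56.0 and 66.4 CPM after repair and at 35.4, 54.8, 53.8, 59.5 and 47.3 CPM with gel, against 34.4 to 84.6 CPM (median 59.2) in uninjured muscle. NID2 stood at 22.7, 21.8, 67.7 and 30.1 CPM after injury, at 33.7, 50.5, 43.6, 20.7 and 49.6 CPM after short-term repair, and at 51.8, 53.4, 98.6, 57.0 and 37.6 CPM with gel. Apart from gel replicate 5, every short-term gel library was above all 5 repair libraries for NID2, and injury replicate 3 was above 4 of the 5 gel libraries. In the long term NID2 ran from 20.4 to 46.8 CPM after repair, from 17.5 to 27.5 CPM with gel and from 15.5 to 31.0 CPM in uninjured muscle.

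HSPG2 encodes perlecan, the heparan sulphate proteoglycan that ties collagen IV to nidogen and holds growth factors in the membrane. It stood at 288, 238, 591 and 393 CPM after injury, at 512, 674, 474, 234 and 832 CPM after short-term repair, and at 476, 422, 759, 466.2 and 377 CPM with gel. Among the long-term libraries it stood at 451, 362, 468, 419 and 293 CPM after repair and at 506, 327, 317, 302 and 234 CPM with gel, against 204 to 386 CPM (median 299) in uninjured muscle. The short-term gel group had 1 high library, replicate 3, and the long-term gel group 1, replicate 1.

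**Figure D1:**
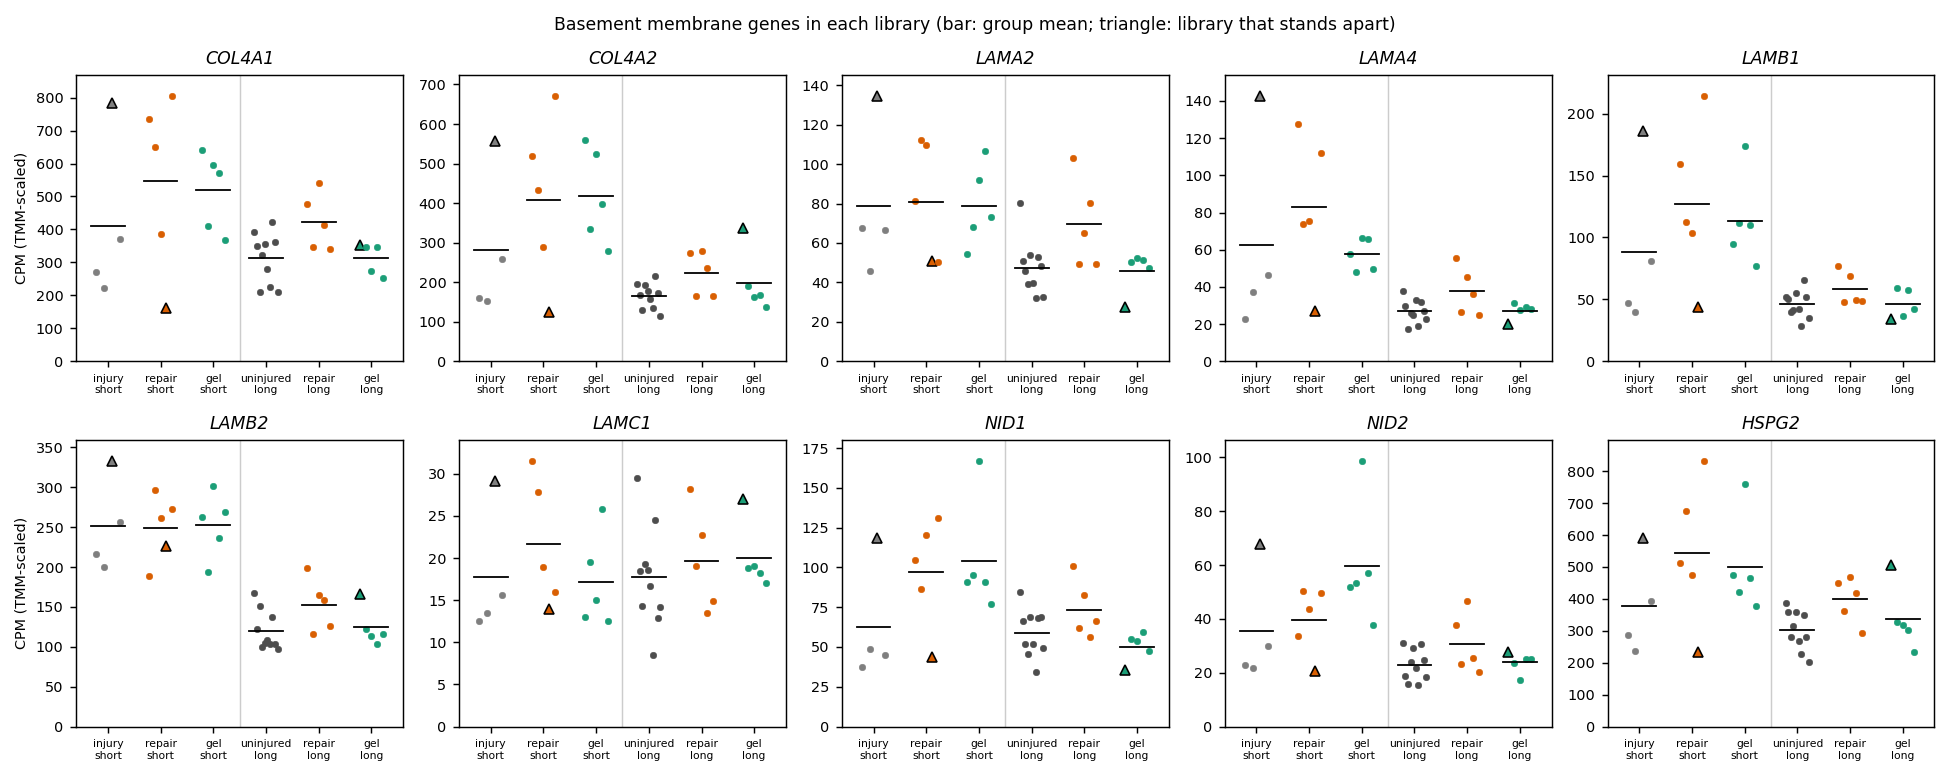
Level of each gene in every library, in TMM-scaled CPM on a linear axis that starts at 0, by group; points are libraries, bars are group means and triangles are the 3 libraries that stand apart. The triangle of the injury group is its highest point for all 10 genes, and the long-term groups lie lower and closer together than the short-term groups for most genes.

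By mean level, 6 genes were highest in short-term repair (COL4A1, LAMA2, LAMA4, LAMB1, LAMC1 and HSPG2) and 4 in short-term gel (COL4A2, LAMB2, NID1 and NID2). The lowest mean was that of uninjured muscle for 6 genes, of long-term gel for LAMA2, LAMB1 and NID1, and of short-term gel for LAMC1. The highest mean exceeded the lowest 3.09-fold for LAMA4, 2.76-fold for LAMB1, 2.60-fold for NID2 and 2.53-fold for COL4A2. Of the 50 steps between neighbours in these orders, 48 were smaller than the larger SD of the groups on either side. The other 2 were the steps from short-term gel down to long-term repair for LAMA4 and from short-term to long-term repair for LAMB2. The spread itself differed between groups. The median coefficient of variation of the 10 genes was 60.7% after injury and 39.2% after short-term repair, against 29.4% in short-term gel, 24.8% in long-term repair, 19.6% in long-term gel and 24.1% in uninjured muscle.

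In the short term, repair was compared with injury only, which asks what repair without gel goes with. No basement membrane gene passed the threshold (edgeR's quasi-likelihood test, Benjamini-Hochberg adjusted p below 0.05 over 13526 genes), and 0% of all genes did. At an unadjusted p below 0.05 the count was also 0 of 10, where 9.5% of all genes were higher and 5.09% lower. DESeq2 called 0 of the 10, where it called 1.49% of all genes higher and 0.303% lower. The fitted difference was above 0 for 9 of 10 genes, against 51.7% of all genes, with a median of 0.40 on the log2 scale against 0.02 over all genes. Differences were largest for NID1 (0.62 ± 0.39 SE, 1.54-fold), HSPG2 (0.52 ± 0.37), COL4A2 (0.52 ± 0.48) and LAMB1 (0.51 ± 0.49), and the adjusted p of the 10 genes started at 0.416 (edgeR).

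This comparison turned on the libraries that stood apart. Without injury replicate 3 and short-term repair replicate 4, an alternative chosen after seeing the data, 6 of 10 genes passed as higher after repair where 17% of all genes did. They were LAMA4 (log2 difference 1.38 ± 0.27 SE, edgeR adjusted p = 0.00508), LAMB1 (1.34 ± 0.34, edgeR adjusted p = 0.0132), NID1 (1.27 ± 0.26, edgeR adjusted p = 0.00595), COL4A2 (1.26 ± 0.33, edgeR adjusted p = 0.0147), COL4A1 (1.10 ± 0.30, edgeR adjusted p = 0.0171) and HSPG2 (0.96 ± 0.30, edgeR adjusted p = 0.0273). The median of the 10 was then 1.03. Injury replicate 3 was the highest injury library for 10 of the 10 genes, and short-term repair replicate 4 the lowest repair library for 8. Leaving them out widens these differences by construction, so the adjusted p-values without them are no test of a rise. LAMA2 (0.50 ± 0.30), LAMB2 (0.12 ± 0.21), LAMC1 (0.70 ± 0.29) and NID2 (0.77 ± 0.28) did not pass. limma's voom test with sample quality weights, which keeps all 14 libraries and gives less weight to those that vary more, called 8 of 10 genes higher, where 17.3% of all genes were higher. Its weights are estimated from these same libraries, so this count is no independent test of a rise either.

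Summed levels of cell type markers also differed between the short-term libraries. The summed level of 7 myofibre markers was 57654 CPM in injury replicate 3, against 191814 to 291016 CPM in the other injury libraries, and 243644 CPM in short-term repair replicate 4, against 41700 to 114829 CPM in the other short-term repair libraries. Each thus lay inside the range of the other's group on this sum, and whether their labels were exchanged was not tested, so the short-term injury and repair values hold for the libraries as labelled. The summed level of 10 fibroblast and fibro-adipogenic markers ran from 1307 to 8678 CPM after injury, from 1301 to 84092 CPM after repair and from 3748 to 9999.6 CPM with gel, and 0 of the 10 were at 0 throughout a group. By group mean, the fibrillar collagen chains COL1A1, COL1A2 and COL3A1 made up most of this sum (7996, 6557 and 8959 CPM after repair). Of the 10 markers, 10 were above 0 after repair against injury (median 1.52, log2) and 7 with gel (0.92). The 10 endothelial markers summed to between 329.6 and 689 CPM after injury, between 367 and 733 CPM after repair and between 289 and 612 CPM with gel. Of 6 macrophage markers 6 were above 0 after repair against injury (median 1.79, log2) and 6 with gel (1.62), and of 6 adipocyte markers 6 were below 0 in both (medians -1.76 and -1.996). Of 8 Schwann markers 8 were below 0 after repair (median -0.98) and 7 with gel (-1.25), where 5 lay below every injury library. Over all 13526 genes, 51.7% were above 0 and 48.3% below after repair, and 51.9% and 48.1% with gel. The median over all genes was 0.02 in both, and with gel 508 of the 13526 lay below every injury library. None of the markers in this paragraph passed the threshold in either comparison (edgeR). The part of these differences in the basement membrane results was not tested.

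Short-term gel was also compared with injury only. No basement membrane gene passed the threshold with all libraries (edgeR, 13526 genes), nor did any other gene (0%). DESeq2 called 0 of the 10, where it called 3.64% of all genes higher and 2.19% lower. At an unadjusted p below 0.05 the count was 0 of 10, where 9.83% of all genes were higher and 8.6% lower. The largest fitted differences were those of the nidogens, NID2 with 0.78 ± 0.39 (log2, SE; edgeR adjusted p = 0.295) and NID1 with 0.78 ± 0.39 (edgeR adjusted p = 0.301), followed by COL4A2 with 0.61 ± 0.48. The difference was above 0 for 8 of 10 genes against 51.9% of all genes, with a median of 0.38 against 0.02. Repair and gel share the injury libraries as their reference in these comparisons.

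Without the same pair of libraries, 4 of 10 genes passed as higher with gel against injury, where 8.42% of all genes did. NID2 was higher by 1.25 ± 0.28 (log2, SE, edgeR adjusted p = 0.0142), NID1 by 1.24 ± 0.25 (edgeR adjusted p = 0.0106), COL4A2 by 1.13 ± 0.32 (edgeR adjusted p = 0.0325) and LAMB1 by 1.01 ± 0.33 (edgeR adjusted p = 0.0490). As the injury library left out was the highest for all 10 genes, these p-values are no test of a rise either. COL4A1 (0.84 ± 0.29, edgeR adjusted p = 0.0582), LAMA4 (0.68 ± 0.25), HSPG2 (0.70 ± 0.28), LAMA2 (0.39 ± 0.29), LAMC1 (0.30 ± 0.28) and LAMB2 (0.16 ± 0.20) did not pass, and the median of the 10 was 0.77. With voom quality weights and all libraries 6 of 10 were called higher, where 13.8% of all genes were. The limit given above for these weights holds here too.

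Gel was compared with repair alone in the short term to ask what the gel adds. No basement membrane gene passed (edgeR, where 0% of all genes did). DESeq2 called 0 of the 10, where 0.688% of all genes were higher and 0.251% lower. With voom 0 of the 10 passed, where 0.0148% of all genes were higher and 0.00739% lower. At an unadjusted p below 0.05 the count was 0 of 10, where 5.65% of all genes were higher and 4.73% lower. The genes divided evenly, 5 above and 5 below 0 against 45.7% of all genes above, with a median of -0.01 against -0.04 over all genes. The largest values were in opposite directions: NID2 was at 59.7 ± 23.0 CPM with gel and 39.6 ± 12.5 CPM with repair (SD, n = 5 each), a log2 difference of 0.64 ± 0.36 (SE; edgeR adjusted p = 0.550), and LAMA4 at 57.5 ± 8.67 CPM against 83.1 ± 39.1 CPM, a difference of -0.48 ± 0.46 (SE; edgeR adjusted p = 0.729). Collagen IV differed by -0.03 ± 0.43 for COL4A1 and 0.09 ± 0.45 for COL4A2. Without the pair of libraries that stood apart, 8 of 10 were below 0, the median was -0.20 and LAMA4 was at -0.70 ± 0.22 (edgeR adjusted p = 0.119).

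**Figure D2:**
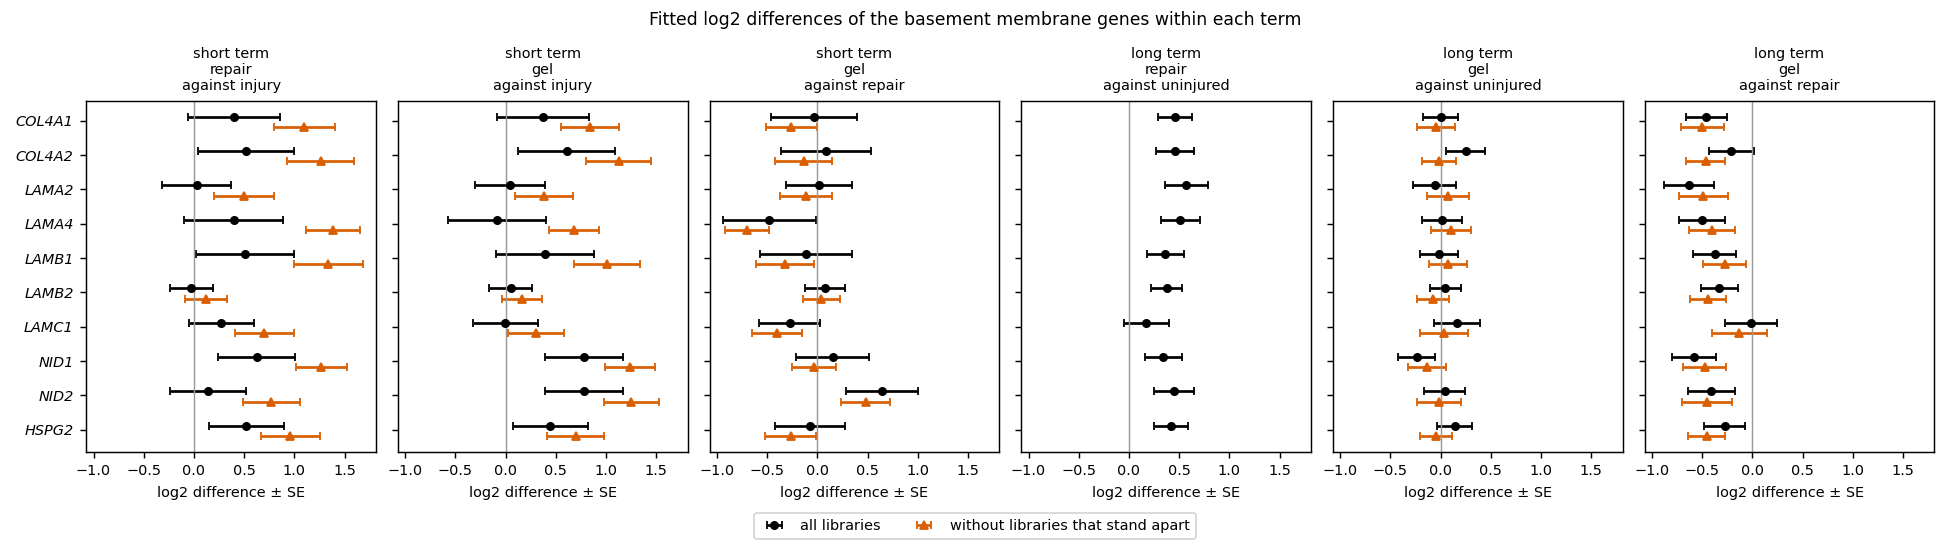
Fitted log2 differences of the 10 genes (x axis, ± SE) in the 6 comparisons within a term; black points use all libraries and orange triangles leave out injury replicate 3 and short-term repair replicate 4 (short term) or long-term gel replicate 1 (long-term gel). In the short-term comparisons with injury the triangles lie to the right of the points for all 10 genes, for each of which injury replicate 3 was the highest injury library. Long-term repair lies above uninjured muscle by 0.17 to 0.57 for the 10.

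Long-term repair was compared with uninjured muscle. All 10 genes were higher after repair than in uninjured muscle, by 0.17 (LAMC1) to 0.57 (LAMA2) on the log2 scale, but none passed the threshold (edgeR, 11605 genes), where 1.01% of all genes did (0.965% higher and 0.0431% lower). DESeq2 called 0 of the 10, where 1.74% of all genes were higher and 0.276% lower. With voom 0 of the 10 passed, where 0.19% of all genes were higher and 0.0431% lower. The median of the 10 was 0.43, against 0.00 over all genes, of which 50% were above 0. At an unadjusted p below 0.05, 7 of 10 were higher, against 7.85% of all genes, and 0 lower, against 3.87%.

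By role, the collagen IV chains differed by 0.46 ± 0.17 (COL4A1, log2, SE) and 0.46 ± 0.19 (COL4A2). The alpha chains differed by 0.57 ± 0.21 (LAMA2, edgeR adjusted p = 0.252) and 0.51 ± 0.19 (LAMA4, edgeR adjusted p = 0.266), and the beta chains by 0.36 ± 0.18 (LAMB1) and 0.38 ± 0.15 (LAMB2). The linkers differed by 0.34 ± 0.18 (NID1), 0.45 ± 0.20 (NID2) and 0.42 ± 0.17 (HSPG2). The ranges overlapped for all 10 genes, as for all but 0.0776% of genes that were higher and 0.0862% that were lower without overlap: repair replicates 2 and 5 lay within the uninjured range for each of them, as the values above show for the collagens and alpha chains.

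Read against the uninjured muscle under the same animal code, the differences were uneven. Under 5 of 5 animal codes perlecan was higher in the repaired muscle, though by as little as 0.01 (log2), and LAMA2, LAMB2, LAMC1 and NID2 were higher under 4 of 5. By code, the muscle of repair replicate 3 was above the uninjured muscle of its code for 10 of 10 genes and that of replicate 4 for 10, that of replicate 1 for 9, and those of replicates 5 and 2 for 4 and 3. For COL4A1 the differences of replicates 1 to 5 were 0.28, -0.01, 0.60, 0.87 and -0.08. With the animal as a block the 10 differences stayed above 0, between 0.23 and 0.44, with an unadjusted p below 0.05 for LAMA4 and LAMB2 and adjusted p-values of at least 0.678 (edgeR).

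Marker genes of other cells also differed here. The sum of the fibroblast and fibro-adipogenic markers was 959.9 to 2789 CPM after repair, 899.9 to 1359 CPM with gel and 464 to 1574 CPM in uninjured muscle, and 2 of its 10 genes rose (PDPN, 2.05 ± 0.47, and DPT, 1.11 ± 0.23). Of 6 adipocyte markers measured 5 rose, the strongest by p being LEP (3.39 ± 0.54), CIDEA (2.21 ± 0.41) and FABP4 (1.56 ± 0.29), and their sum was 220.0 to 1022 CPM after repair, 217 to 357 CPM with gel and 166 to 288 CPM in uninjured muscle. Of 3 tenocyte markers tested 3 rose: KERA (2.92 ± 0.58), FMOD (3.74 ± 0.83) and THBS4 (1.67 ± 0.40). The 8 Schwann markers held 1 that rose (CDH19, 1.41 ± 0.34). No endothelial marker passed, and their sum was 460.2 to 489 CPM after repair, 435 to 592 CPM with gel and 433 to 554 CPM in uninjured muscle. These calls rest on few libraries: without repair replicate 1 or 3, or with the animal as a block, 0 of all genes passed, against 117 with all libraries, and without replicate 4, 2 or 5 the counts were 62, 319 and 185 (without uninjured replicate 3, 4 or 10, they were 69, 71 and 63). Fat cells and fibroblasts also make basement membrane, and the part of these lists in the result was not tested.

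With gel the long-term levels lay near those of uninjured muscle. None of the 10 passed the threshold (edgeR, where 0.00862% of all genes did, which is 1 gene). DESeq2 called 0 of the 10, where 0.0862% of all genes were higher and 0.0431% lower. With voom 0 of the 10 passed, where 0.00862% of all genes were higher and 0% lower. At an unadjusted p below 0.05 the count was 0 of 10, where 8.94% of all genes were higher and 4.9% lower. The fitted difference was above 0 for 6 of 10 genes, against 49.1% of all genes, with a median of 0.03 and a range from -0.24 ± 0.19 (NID1) to 0.25 ± 0.19 (COL4A2). COL4A1 averaged 314 ± 47.0 CPM with gel (SD, n = 5) against an uninjured mean of 312 ± 77.1 CPM (SD, n = 10), a difference of 0.00 ± 0.18 (log2, SE). Without gel replicate 1, COL4A2 was at -0.02 ± 0.17 and HSPG2 at -0.05 ± 0.16. With the animal as a block 9 of 10 differences were above 0. The 10 then lay between -0.11 and 0.25, and 0 had an unadjusted p below 0.05 (edgeR). By code, gel-treated muscle was above the uninjured muscle of its code for 7, 7, 6, 0 and 9 of the 10 genes in replicates 1 to 5.

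The gel group was also compared directly with long-term repair. The fitted difference was below 0 for 10 of 10 genes, with a median of -0.39 against -0.03 over all genes, of which 53.7% were below 0. None passed the threshold (edgeR, 11605 genes), where 0% of all genes did, and DESeq2 and voom called 0 of the 10. DESeq2 called 0.00862% of all genes higher and 0.0517% lower, and voom 0% in either direction. At an unadjusted p below 0.05, 4 of 10 were lower, against 6.32% of all genes, and 0 higher, against 7.88%. The 4 were NID1 (-0.58 ± 0.22, 1.50-fold lower, edgeR adjusted p = 0.302), LAMA2 (-0.63 ± 0.25, 1.55-fold lower, edgeR adjusted p = 0.306), COL4A1 (-0.46 ± 0.20, 1.38-fold lower, edgeR adjusted p = 0.334) and LAMA4 (-0.50 ± 0.23, 1.41-fold lower, edgeR adjusted p = 0.339). LAMC1 differed by -0.01 ± 0.26, its mean CPM being higher with gel (20.03 against 19.65), and this sign turned to 0.01 with DESeq2's size factors.

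The comparison shares its repair libraries with that of repair against uninjured muscle, so their values enter both. Without gel replicate 1 all 10 remained below 0, with a median of -0.45. With the animal as a block the differences were -0.38 (LAMA4) to -0.07 (LAMC1), all 10 below 0, and none had an unadjusted p below 0.05 (edgeR). The sums of the fibroblast and adipocyte markers given above were also lower with gel than with repair at their medians, 1046 against 1668 CPM and 227 against 396 CPM, and their part in the result was not tested.

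**Figure D3:**
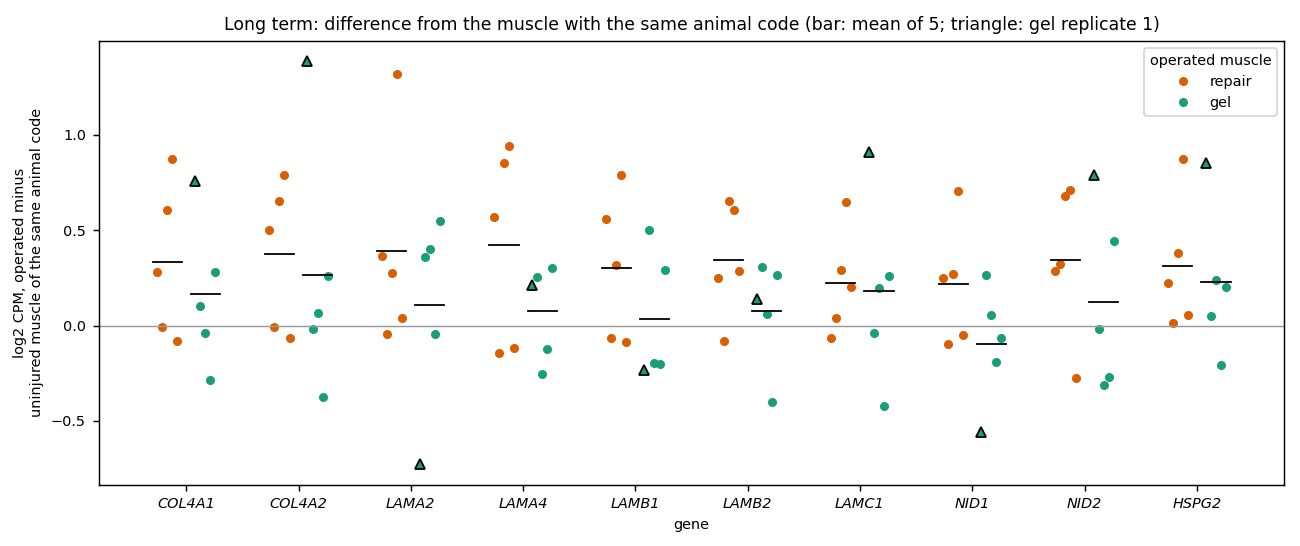
Difference in log2 CPM between each operated long-term muscle and the uninjured muscle under the same animal code (y axis), for repair (orange) and gel (green). Bars are means of 5 animal codes and triangles mark gel replicate 1. Perlecan (HSPG2) is above 0 under 5 of 5 repair codes, and gel replicate 1 gives the highest gel point for COL4A2 and the lowest for LAMA2.

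Long-term and short-term libraries were compared within repair and within gel. After repair, 4 of 10 genes fell from short to long term, where 27.9% of all genes fell and 46.2% changed in either direction (edgeR, 12935 genes). LAMA4 fell by 1.13 on the log2 scale (SE 0.35, edgeR adjusted p = 0.00902), LAMB1 by 1.11 (SE 0.34, edgeR adjusted p = 0.00898), COL4A2 by 0.85 (SE 0.34, edgeR adjusted p = 0.0391) and LAMB2 by 0.70 (SE 0.18, edgeR adjusted p = 0.00288). The other 6 were at -0.13 (LAMC1) to -0.44 (HSPG2), the median of the 10 was -0.42 against -0.11 over all genes, and 0 of 10 had groups that did not overlap, against 11.8% of all genes that were lower without overlap. The calls moved with single libraries. Without short-term repair replicate 5, COL4A2 (edgeR adjusted p = 0.180) and LAMB1 (edgeR adjusted p = 0.0571) missed the threshold. Without all 3 libraries that stood apart 7 of 10 genes fell, where 34% of all genes did. HSPG2 passed without short-term repair replicate 4 (edgeR adjusted p = 0.0345). COL4A2 also missed the threshold without each of short-term repair replicates 1 and 2 and long-term repair replicates 2, 4 and 5.

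With gel, 7 of 10 genes fell from short to long term, where 26.5% of all genes fell (edgeR). NID2 fell by 1.34 (SE 0.30, edgeR adjusted p = 0.000532), LAMB1 by 1.32 (SE 0.34, edgeR adjusted p = 0.00231), LAMA4 by 1.09 (SE 0.35), COL4A2 by 1.09 (SE 0.34), NID1 by 1.07 (SE 0.29), LAMB2 by 1.04 (SE 0.19) and LAMA2 by 0.80 (SE 0.28, edgeR adjusted p = 0.0207). Every long-term gel library was below every short-term one for 7 genes, where 17% of all genes were lower without overlap: those called other than COL4A2, and COL4A1 (-0.74 ± 0.32, edgeR adjusted p = 0.0540). HSPG2 was at -0.58 ± 0.27 and LAMC1 at 0.21 ± 0.28, the only 1 of the 10 above 0. LAMA2 missed the threshold without short-term gel replicate 4 (edgeR adjusted p = 0.0627) or long-term gel replicate 1 (edgeR adjusted p = 0.0718), and without the latter HSPG2 passed (edgeR adjusted p = 0.0262). COL4A1 passed without short-term gel replicate 2 (edgeR adjusted p = 0.0471) or 5 (edgeR adjusted p = 0.0392). Without all 3 libraries that stood apart 9 genes fell, where 31.7% of all genes did. The shares of all genes called show how far the terms differ in general, and term and batch cannot be told apart.

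The difference between gel and repair was then compared between terms, as the long-term difference minus the short-term one. No basement membrane gene passed (edgeR, where 0.0155% of all genes did). DESeq2 called 0 of the 10, where 0.116% of all genes were higher and 0.101% lower. With voom 0 of the 10 passed, where 0.0155% of all genes were higher and 0.0232% lower. At an unadjusted p below 0.05 the count was 1 of 10 (edgeR), against 4.71% of all genes below 0 with such a p. That gene was NID2, at -0.99 ± 0.42 (log2, SE; edgeR adjusted p = 0.326): it was higher with gel than repair in the short term (0.64) and lower in the long term (-0.41). The median of the 10 was -0.29, against 0.06 over all genes, and 8 of 10 were below 0, against 44.5% of all genes. Without all 3 libraries that stood apart, 7 of 10 were below 0 and the median was -0.23. None of the 10 then passed, where 0.0153% of all genes were higher and 0.0612% lower.

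Ratios of related chains and of the nidogens within a library do not depend on scaling between libraries. They were taken as log2 of CPM plus 0.5 and compared by an exact permutation test, 2-sided, with Benjamini-Hochberg adjustment over 32 tests. 0 of 32 passed. The smallest p was that of COL4A1 over COL4A2 in repair between terms: the linear ratio ran from 1.20 to 1.50 early and from 1.73 to 2.09 late (5 libraries each), with no overlap, a log2 difference of 0.50 (exact permutation p = 0.00794, the smallest that 5 against 5 allows, adjusted p = 0.254). Long-term gel replicate 1 had a ratio of 1.05, while the other long-term gel libraries ran from 1.67 to 2.07. The uninjured ones ran from 1.63 to 2.09. In gel the log2 difference between terms was 0.40 (exact permutation p = 0.0635, adjusted p = 0.435). For these ratios too, term and batch cannot be told apart.

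Of the nidogens, NID1 over NID2 was 1.59 to 2.03 in short-term gel and 1.70 to 3.08 in short-term repair, a log2 difference of -0.44 (exact permutation p = 0.0397, adjusted p = 0.435). COL4A1 over COL4A2 was 1.14 to 1.44 in short-term gel and 1.41 to 1.68 after injury, a log2 difference of -0.25 (exact permutation p = 0.0476, adjusted p = 0.435). LAMA4 over LAMA2, the balance of vessel-type to fibre-type alpha chain, ran from 0.533 to 2.21 in short-term repair, from 0.341 to 1.06 after injury and from 0.622 to 1.06 in short-term gel, and from 0.381 to 0.834 across uninjured muscle. LAMB1 over LAMB2 ran from 0.195 to 0.847 in short-term repair and from 0.313 to 0.422 in long-term repair. The SD of the log2 ratio within short-term repair, 0.89 for the alpha and 0.87 for the beta chains, exceeded the largest difference between short-term group means, 0.51 and 0.62.

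**Figure D4:**
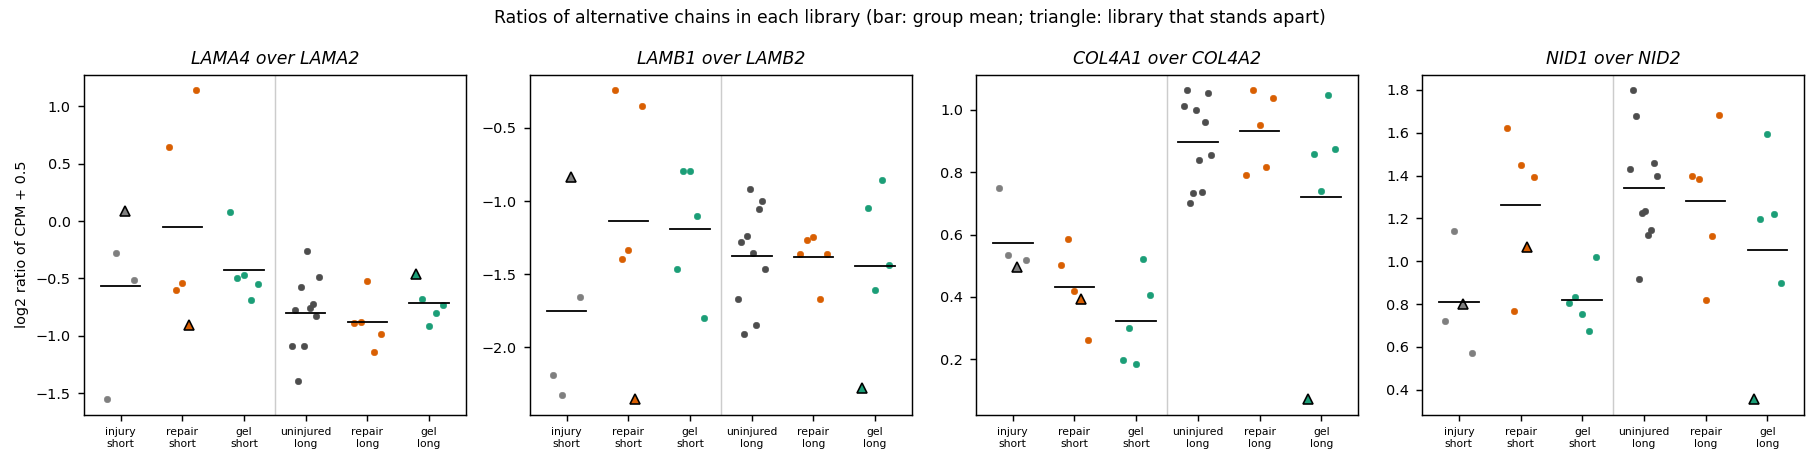
Log2 ratio of each pair of chains (CPM plus 0.5, y axis) in every library by group; bars are group means and triangles the 3 libraries that stand apart. COL4A1 over COL4A2 lies higher in long-term repair (1.73 to 2.09 as a linear ratio) than in short-term repair (1.20 to 1.50), with long-term gel replicate 1 apart at 1.05.

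The 10 genes were then correlated with each other within groups. After each gene was centred on its group means, COL4A1 and COL4A2 had Pearson's r = 0.986 and Spearman's rho = 0.978 over the 14 short-term libraries, and r = 0.808 and rho = 0.850 over the 20 long-term libraries (permutation p of r = 1e-05, the smallest that 100000 permutations give, and 3e-05; adjusted over 90 tests 0.000112 and 0.00015; permutation p of rho = 1e-05 in both, adjusted 0.000225). Without the 2 libraries farthest from the median of COL4A1, r was 0.971 and 0.770. The 2 genes are neighbours in the RefSeq annotation of the rabbit assembly mOryCun1.1. Over the 45 pairs the median r was 0.71 in the short term (0.10 to 0.99) and 0.61 in the long term (0.21 to 0.90), with 28 and 29 pairs at an adjusted permutation p below 0.05. The lowest r was that of LAMB2 with LAMC1 in the short term, 0.10. The medians and counts of pairs include the libraries that stood apart and are not given without them. Both genes of a pair come from the same library, with its scaling and its makeup of cells. Libraries were permuted across all groups of a term, though the spread differed between groups and long-term libraries share animal codes. The permutation p-values may therefore be too small.

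The genes most like the mean of the 10 within groups, by the smaller of the 2 values of Pearson's r over the 14 short-term and the 20 long-term libraries among 9261 genes, were SVEP1 (0.91 and 0.88), ITIH5 (0.87 and 0.90), CCDC80 (0.87 and 0.91), FSTL1 (0.87 and 0.87) and AGTR1 (0.92 and 0.87). They encode a large cell-adhesion protein of the matrix, a protein that binds hyaluronan, 2 secreted proteins of stromal cells and a receptor of angiotensin. Spearman's rho over the short-term and long-term libraries was 0.86 and 0.79 for SVEP1, 0.65 and 0.88 for ITIH5 and 0.83 and 0.88 for CCDC80. For FSTL1 it was 0.85 and 0.76, and for AGTR1 0.86 and 0.89. These values of r and rho also include the libraries that stood apart.

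Further genes of the basement membrane were read as lists. Of 22 other components, such as the remaining collagen IV and laminin chains and SPARC, 19 were in the files. None of them passed in the 6 comparisons within a term (edgeR). From short to long term 8 of 18 tested fell after repair, where 27.9% of all genes did, and 10 of 18 with gel, where 26.5% did. 0 rose, against 18.2% and 21.8% of all genes. After repair SPARC, which binds collagen IV, fell by 2.95 (SE 0.57), FBLN1 (fibulin 1) by 2.95 (SE 0.59) and SMOC2 by 1.76 (SE 0.41). With gel FRAS1 fell by 1.28 (SE 0.27), COL4A5 by 1.26 (SE 0.28) and LAMC3 by 2.78 (SE 0.68). The median of the list was -0.68 after repair and -1.25 with gel, against -0.11 and -0.09 over all genes.

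Receptors that hold the fibre to its membrane did not move as a block. Of 14 measured, none passed within a term (edgeR). From short to long term DAG1, which encodes dystroglycan, rose by 0.99 (SE 0.15) after repair and by 0.70 (SE 0.15) with gel, while ITGA7, the muscle laminin integrin chain, fell by 0.69 (SE 0.28) and 1.19 (SE 0.28). ITGA1, a collagen receptor chain, rose by 0.68 (SE 0.25) after repair, and DDR1, a collagen receptor kinase, rose by 0.78 (SE 0.24) with gel. In each comparison 2 of 14 rose and 1 fell, below the shares of all genes given above, and the medians of the list were 0.07 and 0.09.

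Factors of assembly and turnover numbered 13 of 16 in the files, and none passed within a term (edgeR). From short to long term 9 of 13 fell after repair and 7 of 13 with gel, against 27.9% and 26.5% of all genes, while 1 rose with gel, against 21.8% of all genes, the collagen export factor MIA3 (0.65 ± 0.19). The gelatinase MMP2 fell by 3.06 (SE 0.55) after repair, with the collagen-modifying enzymes P4HA2 (2.37 lower, SE 0.44) and PLOD1 (1.56 lower, SE 0.31). With gel the protease CTSS fell by 3.18 (SE 0.45), the dystroglycan glycosyltransferase POMT1 by 0.68 (SE 0.16) and the membrane protease MMP14 by 2.58 (SE 0.61).

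**Figure D5:**
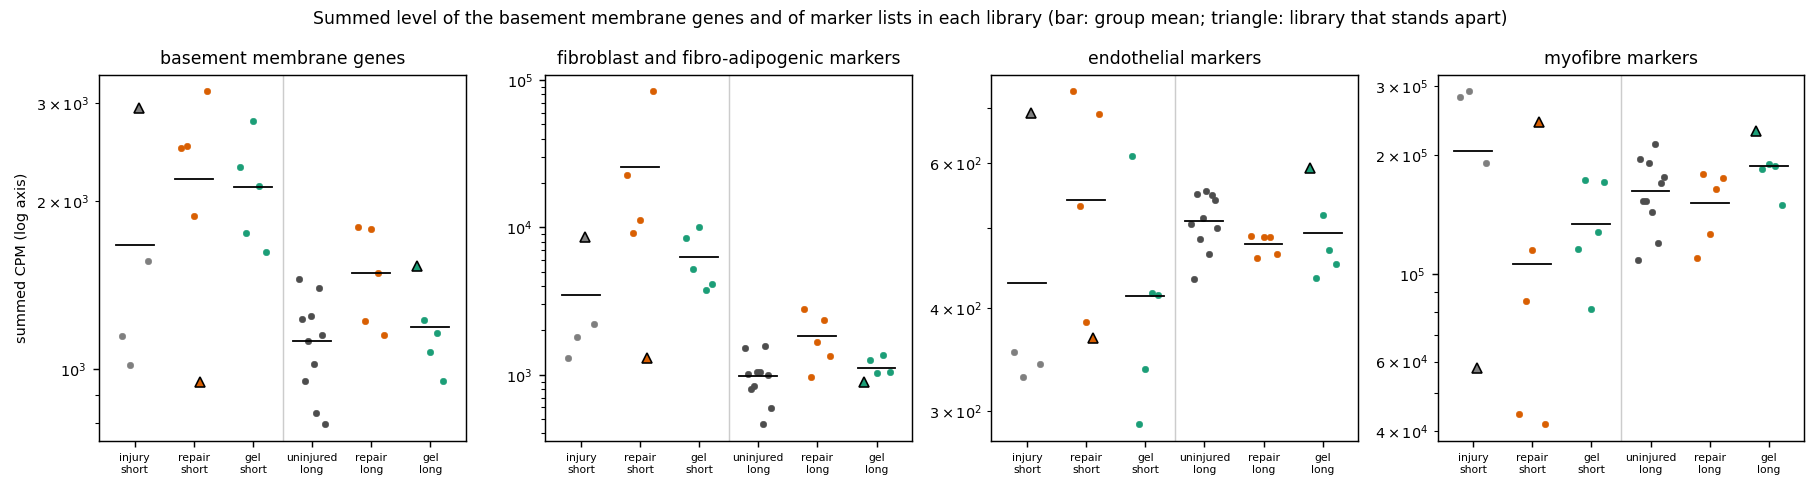
Summed CPM (log axis) of the 10 basement membrane genes and of the fibroblast, endothelial and myofibre marker lists in every library, by group; bars are group means and triangles the 3 libraries that stand apart. Injury replicate 3 is high for the basement membrane genes and low for myofibre markers (57654 CPM), and short-term repair replicate 4 is the reverse (243644 CPM).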

How the data were processed

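RNA of 34 rabbit supraspinatus samples was sequenced; extraction and libraries were by a commercial laboratory, per the labels. The values the authors deposited are whole, unnormalized counts for each gene. Per the submitters' processing notes, STAR and edgeR were used with OryCun2.0. The tools' versions, the counter, the annotation and any strand setting are not stated in the labels, headers or notes used here, so overlapping genes cannot be told apart. Sample titles gave each library's group and number, and file names the animal codes.

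Entries whose names had become dates (26, holding up to 0.163% of any library's counts) were dropped, and 7 symbols listed more than once, in 15 entries, were added up. R 4.3.3 with edgeR 4.0.16 (TMM, filtering by expression, robust quasi-likelihood test, 2-sided) was fitted to 14 short-term libraries (13526 genes), 20 long-term libraries (11605 genes) and, between terms, all 34 (12935 genes), with Benjamini-Hochberg adjustment over all genes at a threshold of 0.05. CPM were TMM-scaled over all 34, and log2 CPM used a prior count of 2. Groups do not overlap where every library of one is above every library of the other. The scripts were tested on simulated data.

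Named are the 10 members, up to 3 genes per direction past the threshold in each list by smallest p, and the 5 genes most like the members. The members and lists were chosen with earlier results of these data known. Of the listed genes, 19 were not matched in the files by symbol and were not used here. Libraries of 1 animal code correlated between -0.299 and 0.387, above 0.1 in 6 of 10 pairs. Alternatives were DESeq2 1.42.0, its size factors in edgeR, no low-count filter, a ratio pseudocount of 2 CPM, limma 3.58.1 voom with quality weights, the replicate number or animal as a block, and leaving out each library. Leaving out 2 or 3 libraries that stand apart was added after seeing the data. The 10 members had 106 counts or more in every library, and no counting interval is given, since the spread between libraries enters each test.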

Additional observations from a re-analysis of the deposited data

Results flagged for a closer look

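In 84 groups of 4 to 10 libraries, the gap of the highest or lowest value to its neighbour was compared with the group's range. It passed Dixon's 95% critical value in 9. Chance alone flags about 1 in 20 groups where groups are independent and values normally distributed. These groups share libraries and correlated genes, so the 9 cannot be read as an excess over that rate. Long-term gel replicate 1 accounted for 3: COL4A2 at 336 CPM where the next library was at 190.3, LAMC1 at 27.0 CPM where the next was at 19.1, and LAMA2 at 27.7 CPM where the next lowest was at 47.3. Short-term gel replicate 3 accounted for 2: NID1 at 167 CPM, next 95.4, and HSPG2 at 759 CPM, next 476. Injury replicate 3 had NID1 at 118 CPM, next 48.6. In uninjured muscle, replicate 1 had LAMA2 at 80.1 CPM, next 53.7. Among the ratios, LAMA4 over LAMA2 was 1.06 in short-term gel replicate 1, next 0.724, and COL4A1 over COL4A2 was 1.68 in injury replicate 1, next 1.45.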

How the results depend on the processing

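The 90 log2 differences of the members and 3 ratios with an unadjusted p below 0.05 kept their direction and their side of the threshold in 478 of 546 values under alternatives other than leaving out 1 library, and in 1005 of 1109 with 1 library left out. Reversed signs were of differences with an adjusted p of 0.532 or more in the edgeR fit with all libraries, and the cause was not tested. With DESeq2, genes past the threshold were 242 (short-term repair against injury), 788 (gel against injury), 127 (gel against repair), 234 (long-term repair against uninjured), 15 (gel against uninjured), 7 (gel against repair) and 28 (difference between terms), against 0, 0, 0, 117, 1, 0 and 2 with edgeR. LAMC1 was then at 0.00090 in short-term gel against injury and at 0.013 in long-term gel against repair, and COL4A1 at 0.0094 in long-term gel against uninjured. DESeq2's size factors in edgeR gave 0.00090, 0.012 and 0.0094 for the same 3. Without a filter on low counts LAMA2 was at -0.0030 in short-term gel against repair.

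With voom quality weights the genes called were 4538 (8 members), 3667 (6 members) and 3 in the short term in the order above, 27 in long-term repair against uninjured and 5 for the difference between terms. Reversed were LAMA2 (-0.35) and LAMB2 (-0.029) in short-term gel against repair, LAMB2 (0.24) in repair against injury, LAMA4 (0.76) and LAMC1 (0.24) in gel against injury, LAMC1 (0.023) in long-term gel against repair, and COL4A1 (0.051), LAMA2 (0.15), LAMB1 (0.14) and LAMB2 (-0.0033) in long-term gel against uninjured.

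With the replicate number as a block, 0 genes passed in long-term repair and 0 in long-term gel against uninjured, and reversed were COL4A1 (0.016) in short-term gel against repair, LAMA4 (0.11) and LAMC1 (0.12) in gel against injury, LAMC1 in long-term gel against repair (0.018) and repair against uninjured (-0.018), and LAMB2 (-0.046) and HSPG2 (-0.064) in gel against uninjured. Libraries that share a number deviated together (a correlation above 0.1) in at most 3 of 5 pairs of a comparison, so this pairing by number is not taken as one of the design. With the animal as a block, 0 genes passed in both comparisons with uninjured muscle, and COL4A1 (0.15), LAMA2 (0.10) and LAMB1 (0.022) were reversed in gel against uninjured.

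Without the 2 short-term libraries that stand apart, genes called were 4556 (6 members), 2577 (4 members) and 13 in the short term in the order above. Reversed were LAMB2 (0.12) in repair against injury, LAMA4 (0.68) and LAMC1 (0.30) in gel against injury, and COL4A2 (-0.14), LAMA2 (-0.11) and NID1 (-0.031) in gel against repair. Without all 3, the members called in repair between terms were 7, the genes called for the difference between terms 10, and LAMB1 was at 0.10 there.

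With each library left out in turn, genes called ran from 0 to 34 in short-term repair against injury (34 without repair replicate 4), 0 to 382 in gel against injury (382 without injury replicate 3) and 0 to 2 in gel against repair. They ran from 0 to 319 in long-term repair and 0 to 1 in long-term gel against uninjured, and from 2 to 9 for the difference between terms (9 without short-term repair replicate 4). Members called in repair between terms ran from 2 to 5. Log2 differences that changed sign ran, in short-term gel against repair, from -0.27 to 0.15 (COL4A1), -0.14 to 0.35 (COL4A2), -0.12 to 0.16 (LAMA2), -0.33 to 0.16 (LAMB1), -0.020 to 0.16 (LAMB2), -0.080 to 0.28 (NID1) and -0.27 to 0.13 (HSPG2). In repair against injury they ran from -0.16 to 0.38 (LAMA2), -0.14 to 0.095 (LAMB2) and -0.039 to 0.61 (NID2), and in gel against injury from -0.15 to 0.39 (LAMA2), -0.36 to 0.68 (LAMA4), -0.062 to 0.16 (LAMB2) and -0.20 to 0.30 (LAMC1). In the long term they ran from -0.13 to 0.17 (LAMC1) in gel against repair, from -0.0066 to 0.28 (LAMC1) in repair against uninjured, and in gel against uninjured from -0.054 to 0.066 (COL4A1), -0.018 to 0.35 (COL4A2), -0.11 to 0.072 (LAMA2), -0.047 to 0.10 (LAMA4), -0.13 to 0.075 (LAMB1), -0.075 to 0.11 (LAMB2), -0.015 to 0.13 (NID2) and -0.049 to 0.25 (HSPG2). Between terms they ran from -0.29 to 0.057 (LAMC1) in repair, and for the difference between terms from -0.18 to 0.26 (LAMA4), -0.50 to 0.0091 (LAMB1) and -0.36 to 0.061 (HSPG2). No ratio passed under any alternative run.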

Other observations

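Markers of other cells changed between terms beside the basement membrane genes, and their part in those results was not tested. Beside the counts below, 27.9% of all genes fell and 18.2% rose after repair, and 26.5% fell and 21.8% rose with gel, with medians of -0.11 and -0.09. Of 6 macrophage markers measured, 5 fell from short to long term after repair and 6 with gel (edgeR), with medians of -2.47 and -2.59 on the log2 scale. Of 10 fibroblast and fibro-adipogenic markers 8 fell after repair and 7 with gel, among them the fibrillar collagen chain COL1A2, which fell by 4.88 (SE 0.81) after repair and by 3.66 (SE 0.76) with gel. Of 5 tenocyte markers 2 fell after repair and 3 with gel, and KERA (keratocan) fell by 3.09 (SE 0.76) and 4.79 (SE 0.88). Of 8 Schwann markers, 3 rose and 1 fell after repair, and 5 rose with gel, where SOX10 rose by 3.15 (SE 0.63). Of 10 endothelial markers 4 rose and 1 fell after repair, and 2 rose with gel. Of 9 pericyte and smooth muscle markers 4 rose and 4 fell after repair, and 3 rose and 2 fell with gel. Of 7 myofibre markers 2 rose and 1 fell in each comparison. Of 6 adipocyte markers, and of 3 satellite cell markers, 0 passed after repair and 1 fell with gel.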
